A study of Mus musculus with 12 samples.

Results

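All-trans retinoic acid (ATRA), the acid form of vitamin A, was compared with its absence at day 7 in mouse liver, once in mice without and once in mice with diethylnitrosamine (DEN), a carcinogen that hepatocytes convert into a DNA-alkylating agent. The members are the 4 arrays of the 12 in the series whose titles name ATRA, vehicle, ATRA+DEN and DEN at 7 days. They form 2 pairs, ATRA minus vehicle and ATRA+DEN minus DEN, with 1 array per group and no replicate of any group. All mice were wild-type male ICR, an outbred stock in which animals differ in genotype, bought at 5 weeks of age and adapted for 1 week. Both agents were drunk with the water, ATRA at 30 mg/L (roughly 150 µg daily) and DEN at 80 mg/L (roughly 400 µg daily). The ATRA group drank ATRA alone, the ATRA+DEN group both agents, the DEN group DEN alone, and the vehicle group water, although the ATRA stock had been dissolved in ethanol and dimethyl sulfoxide. Liver RNA of 2 more day-7 groups, injected with 1.6 nmol of control siRNA or of G0s2 siRNA, and the same contrasts at day 2 are used beside these pairs. It is not stated whether an array holds 1 animal or a pool, nor whether the siRNA-injected mice drank DEN.

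Both ATRA arrays lay on slide 4, with both siRNA arrays, and were scanned on the third scan day of the series, whereas vehicle and DEN lay on slide 3 and were scanned on the second scan day. ATRA, slide and scan day therefore cannot be told apart in either pair, and a difference shared by both pairs carries all of them. The pairs share no array. A level is the log2 processed intensity minus the 75th percentile of its array, so 0 is that percentile, and a difference of 1 is 2-fold. A gene was taken as measured in a pair when its probe was well above background on both arrays. On the 4 arrays 42.9% to 46.2% of 55681 probes were well above background and none was saturated.

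Retinoic acid enters the nucleus and binds retinoic acid receptors, which pair with retinoid X receptors on DNA. Their classical site is a direct repeat of a hexamer with a spacer of 5 bases, called DR5. Among the best known target genes are those that remove or store retinoids: the Cyp26 enzymes oxidise retinoic acid, and Lrat makes the retinyl esters that hepatic stellate cells hold. The liver is the main vitamin A store of the body, which is why a feedback of this kind is studied there.

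The promoters of Cyp26a1 and of Rarb, which encodes retinoic acid receptor beta, are shown because both hold a DR5 in the window from 250 bases before to 50 bases after the gene start. The sequences are from RefSeq on GRCm38.p6, Cyp26a1 at chr19:37697558-37697857, plus strand, and Rarb at chr14:16575427-16575726, minus strand. They run 5′ to 3′ on the gene's strand, and the capitals mark the DR5, which starts 32 bases before the gene start in Cyp26a1 and 53 bases before it in Rarb.
Cyp26a1: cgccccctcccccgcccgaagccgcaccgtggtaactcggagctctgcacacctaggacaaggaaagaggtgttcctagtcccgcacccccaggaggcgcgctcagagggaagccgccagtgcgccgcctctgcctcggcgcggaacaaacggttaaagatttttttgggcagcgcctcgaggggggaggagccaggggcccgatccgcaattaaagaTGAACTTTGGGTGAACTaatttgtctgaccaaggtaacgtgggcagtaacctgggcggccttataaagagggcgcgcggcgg
Rarb: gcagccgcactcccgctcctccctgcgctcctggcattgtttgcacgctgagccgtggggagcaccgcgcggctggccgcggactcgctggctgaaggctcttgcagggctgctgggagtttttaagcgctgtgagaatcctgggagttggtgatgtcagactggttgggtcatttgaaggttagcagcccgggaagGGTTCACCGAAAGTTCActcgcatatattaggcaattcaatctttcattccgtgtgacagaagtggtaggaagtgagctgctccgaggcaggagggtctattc
The search took AGGTCA or AGTTCA or GGGTCA or GGTTCA, then 5 bases, then any of the same hexamers, on both strands. This motif occurred in 32 of 32851 promoter windows, 0.0974%. Of the 31 genes with such a window, 3 were measured in both pairs, namely Cyp26a1, Rarb and Blvrb, a biliverdin reductase. Blvrb had differences of 0.41 in ATRA minus vehicle and 0.07 in ATRA+DEN minus DEN. The match is a description of these letters and not of binding, and no DR5 among the other genes says only that it is not in this window.

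Cyp26a1 and Cyp26b1, enzymes that clear retinoic acid, were at least 2-fold higher in both pairs. Cyp26a1 (probe on chromosome 19, 37775566 to 37775625, mm9) had a level of 7.10 in ATRA and 2.38 in vehicle, and of 4.34 in ATRA+DEN and 1.35 in DEN. Both ATRA arrays stood above both arrays without ATRA, by 26.4-fold in the pair without DEN and 7.92-fold in the pair with DEN. On the same slide as the ATRA arrays, control siRNA had 0.92 and G0s2 siRNA 1.55, so the ATRA arrays were also high within their slide. At day 2, where all 4 arrays of these contrasts lay on 1 slide, the differences were 6.21 in ATRA minus vehicle and 4.53 in ATRA+DEN minus DEN.

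Cyp26b1, the second retinoic acid hydroxylase measured, had 5.51 in ATRA and 3.03 in vehicle, and 3.39 in ATRA+DEN and 1.97 in DEN. The differences were 5.57-fold and 2.67-fold. The ranges of the arrays with and without ATRA did not overlap, but ATRA+DEN exceeded vehicle by little. Its same-slide levels were 0.31 in control siRNA and 2.47 in G0s2 siRNA, and its day-2 differences were 6.09 and 3.88.

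Lrat, which esterifies retinol for storage, had 2.46 in ATRA and 0.72 in vehicle, and 1.51 in ATRA+DEN and 0.07 in DEN, that is 3.34-fold and 2.72-fold. Both siRNA arrays, at -0.11 and 0.12, were near DEN. Its day-2 differences were 2.21 and 1.96. Over both pairs limma gave a mean difference of 3.85 ± 0.45 for Cyp26a1, 1.95 ± 0.30 for Cyp26b1 and 1.59 ± 0.17 for Lrat. The value after ± is limma's moderated SE, which draws on the spread of all genes and is not that of the 2 pairs alone. The single pairs gave 4.72 and 2.99 for Cyp26a1, 2.48 and 1.42 for Cyp26b1, and 1.74 and 1.44 for Lrat. With 1 residual degree of freedom among the 4 arrays, none of the 16644 genes measured in both pairs passed a Benjamini-Hochberg adjusted p of 0.05 in limma (0.0% called, lowest adjusted p 0.435), while 1082 higher and 571 lower genes had an unadjusted p under 0.05.

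Rarb differed between the pairs. Its level was 2.26 in ATRA and 0.62 in vehicle, and 0.74 in ATRA+DEN and 0.51 in DEN. ATRA alone stood apart from the other 3 arrays and from both siRNA arrays, which had 0.05 and 0.53. The difference was 3.14-fold without DEN and 1.17-fold with DEN, and another probe of Rarb gave 1.04 and -0.47. At day 2 it was 1.45 and 1.11. Rarb is thus a gene with a DR5 that was 2-fold apart in a single day-7 pair.

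Of the whole retinoid list of 30 genes, Cyp26a1, Cyp26b1, Lrat and Rarb included, 22 were measured in both pairs. At least 2-fold higher were 5 in ATRA than in vehicle (1.44% of all genes) and 3 in ATRA+DEN than in DEN (2.52% of all genes), the 3 being Cyp26a1, Cyp26b1 and Lrat. None was 2-fold lower. The medians were 0.32 and 0.09, beside -0.00 and 0.05 over all genes measured. Dhrs3, which reduces retinal back to retinol, had 7.92 in ATRA and 7.47 in vehicle, and 7.43 in ATRA+DEN and 7.26 in DEN, under 2-fold in both.

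**Figure D1:**
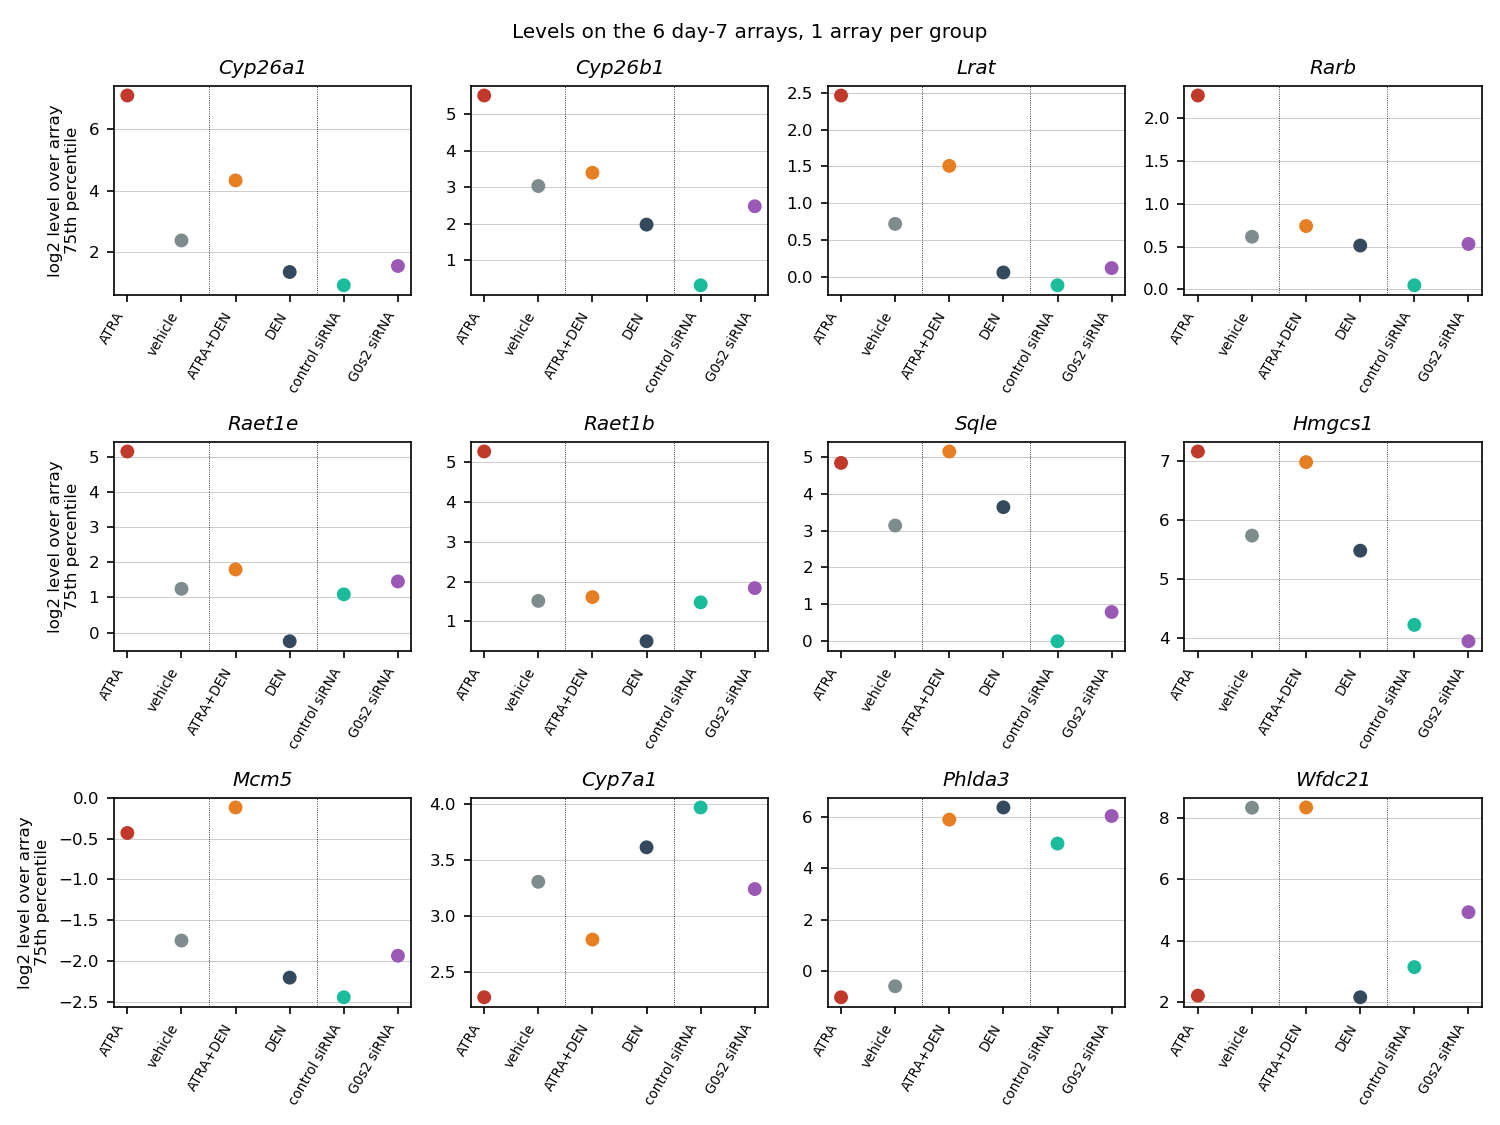
Log2 level over the 75th percentile of the array (vertical axis) of 12 genes on the 6 day-7 arrays, 1 point per array, with dotted lines between the ATRA pair, the ATRA+DEN pair and the siRNA arrays. Cyp26a1 stands at 7.10 in ATRA and 4.34 in ATRA+DEN, above the other 4 arrays, while Phlda3 separates the arrays by DEN.

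The marks of DEN followed the titles. Phlda3, a p53 target that restrains Akt signalling, had -1.02 in ATRA and -0.59 in vehicle, but 5.89 in ATRA+DEN and 6.36 in DEN. Cdkn1a, the p53-induced cell cycle inhibitor p21, had 2.84 in ATRA and 1.96 in vehicle, and 6.62 in ATRA+DEN and 6.83 in DEN. Mdm2, which degrades p53 and is its target, had 3.75 in ATRA and 3.83 in vehicle, and 5.72 in ATRA+DEN and 6.05 in DEN. None of these genes was 2-fold apart between the arrays of a pair, and both siRNA arrays were on the side of the DEN arrays, with Phlda3 at 4.96 in control siRNA and 6.03 in G0s2 siRNA. G0s2, the inhibitor of triglyceride lipase that the siRNA targets, had 4.22 in ATRA and 3.93 in vehicle, and 2.83 in ATRA+DEN and 3.39 in DEN.

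For 3 of the 4 arrays a separate treatment field contradicts title and source name. That field gives ATRA for the DEN title, DEN for the ATRA+DEN title and both agents for the ATRA title. Under that reading the ATRA effect without DEN would be the array titled DEN minus vehicle, in which Cyp26a1 differed by -1.03 and Phlda3 by 6.95. The effect with DEN would be the array titled ATRA minus the one titled ATRA+DEN, with 2.77 for Cyp26a1 and -6.91 for Phlda3. Titles are used throughout.

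The liver identity of the samples was clear. Of 29 hepatocyte markers 28 were measured in both pairs and none was 2-fold apart in either, with medians of -0.12 and -0.06, the second of which has the opposite sign under other normalizations (up to 0.09). Alb, the serum albumin gene, had 10.60 in ATRA and 10.46 in vehicle, and 10.46 in ATRA+DEN and 10.56 in DEN. Stellate cell and matrix markers were close to hepatocyte markers, with medians of -0.13 and -0.01. Markers of some other cells differed more. Of 15 neutrophil markers 6 were measured in both pairs, with medians of -0.58 and -0.37. Red cell markers had medians of -0.32 over 13 genes and 0.14 over 12 genes. The median of sinusoidal endothelial markers was -0.29 over 20 genes without DEN and 0.31 over 19 genes with DEN. In whole liver fewer cells of a type and less RNA per cell cannot be told apart, and the part of other cells in the results was not tested.

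Across all genes the pair with DEN held more differences. Between ATRA and vehicle 247 of 17131 genes were at least 2-fold higher (1.44%) and 195 lower (1.14%). Between ATRA+DEN and DEN 440 of 17472 were higher (2.52%) and 448 lower (2.56%). After another background correction (normexp) the split with DEN was 301 higher and 137 lower. Among genes measured in both pairs, 53 were higher in both (0.318%) and 30 lower in both (0.18%), and 28 and 19 of them had gene names rather than predicted or clone names. Within the genes measured in both pairs, 223 were higher in ATRA than in vehicle and 424 in ATRA+DEN than in DEN, and the 53 make up 23.8% and 12.5% of these. Likewise 176 and 371 were lower, and the 30 make up 17.0% and 8.09% of these. The sign was the same in both pairs for 57.9% of the 16644 genes, and the differences correlated at r = 0.20 across genes, a description of genes that share 2 slides and are not independent.

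**Figure D2:**
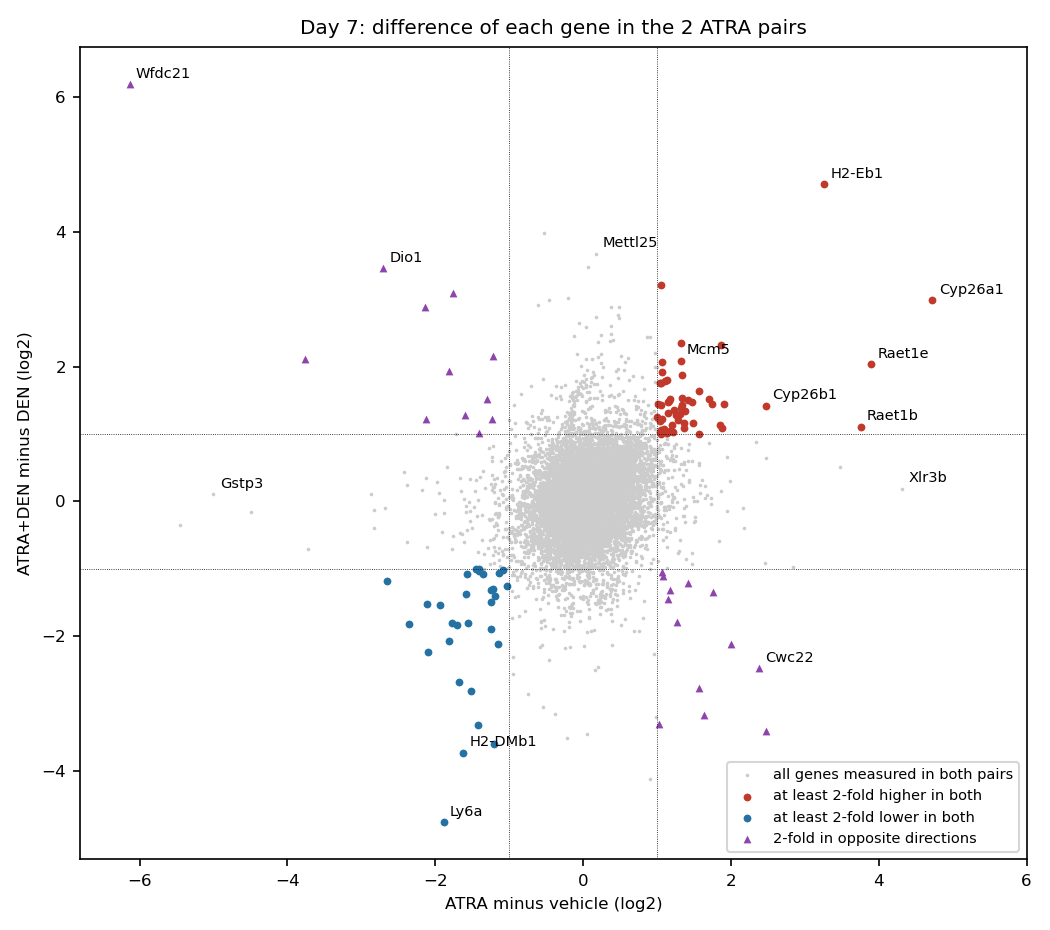
Difference in ATRA minus vehicle (horizontal axis, log2) against ATRA+DEN minus DEN (vertical axis, log2), 1 point per gene measured in both pairs, with dotted lines at 2-fold. The 53 genes higher in both and the 30 lower in both are few beside the 16644, and 25 genes lie past 2-fold in opposite directions, Wfdc21 farthest out.

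The 2-fold limit is not a natural gap. The shared genes just inside it had a smaller difference of 2.00-fold among the higher and 2.01-fold among the lower, those just outside 1.99-fold and 2.00-fold. Another 37 higher and 24 lower genes had a smaller difference between 1.8-fold and 2-fold.

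Beside the retinoid genes, 2 ligands of the natural killer cell receptor NKG2D were at least 2-fold higher with ATRA in both pairs. These Raet1 proteins are displayed on stressed or developing cells and are recognised by lymphocytes. Raet1e had 5.15 in ATRA and 1.24 in vehicle, and 1.80 in ATRA+DEN and -0.24 in DEN, that is 14.9-fold and 4.11-fold. Raet1b had 5.27 in ATRA and 1.52 in vehicle, and 1.61 in ATRA+DEN and 0.50 in DEN, that is 13.5-fold and 2.16-fold. ATRA stood far above every other day-7 array in both genes, whereas ATRA+DEN was close to vehicle and to the siRNA arrays, which lay between 1.09 and 1.84.

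Both genes were also higher with ATRA within the single slide of day 2, where Raet1e differed by 6.09 and 2.80 and Raet1b by 4.18 and 2.48. Their relative Raet1c was above background in the ATRA arrays only, at least 8.99-fold over vehicle and at least 5.96-fold over DEN. Here the bright array is set against the lowest signal well above background on the dim array, or the dim probe's own signal where that is higher. At day 2 Raet1c differed by -1.28 without DEN and 2.23 with DEN, no background filter being applied there. The probes of Raet1b, Raet1c and Raet1e are 60 bases long and share no run longer than 5 bases. They were compared with each other only, so whether a probe also binds the transcript of a relative was not tested. Of the 8 listed NKG2D ligands on the array, Raet1b and Raet1e were the 2 measured in both pairs.

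Sterol synthesis was the broadest shared group. The pathway builds cholesterol from acetyl-CoA through mevalonate and squalene, and its genes are switched on together by the transcription factor SREBP2 when cells lack sterol. Of its 26 genes, all measured in both pairs, 21 were higher in both, against 32.3% of all genes, and 2 lower in both. The medians were 0.53 in ATRA minus vehicle and 0.73 in ATRA+DEN minus DEN. At least 2-fold higher were 5 genes without DEN and 8 with DEN, none was 2-fold lower, and 4 passed in both: Hmgcs1, Sqle, Nsdhl and Cyp51. In limma 15 of the 26 had an unadjusted p under 0.05 and a higher level with ATRA, beside 6.5% of all genes.

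Hmgcs1, which makes the HMG-CoA that feeds the mevalonate pathway, had 7.17 in ATRA and 5.74 in vehicle, and 6.99 in ATRA+DEN and 5.49 in DEN (2.68-fold and 2.83-fold). Fdps, which joins isoprenoid units into farnesyl diphosphate, had 7.00 in ATRA and 6.13 in vehicle, and 7.16 in ATRA+DEN and 5.73 in DEN (1.84-fold and 2.70-fold). Sqle, the squalene epoxidase, had 4.84 in ATRA and 3.14 in vehicle, and 5.15 in ATRA+DEN and 3.64 in DEN (3.26-fold and 2.86-fold). In each of these the arrays with ATRA stood above both arrays without it.

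Downstream, Nsdhl, which removes methyl groups from the sterol ring, had 2.66 in ATRA and 1.32 in vehicle, and 2.38 in ATRA+DEN and 0.85 in DEN (2.54-fold and 2.90-fold). A second probe of Nsdhl gave smaller differences of 0.95 and 0.68. Cyp51, the lanosterol demethylase, had 1.55 in ATRA and 0.49 in vehicle, and 1.57 in ATRA+DEN and 0.34 in DEN (2.09-fold and 2.34-fold).

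Within slide 4, 24 of the 26 sterol genes were higher in both ATRA arrays than in both siRNA arrays, beside 28.7% of all genes. The siRNA arrays were low rather than level with slide 3: Sqle had -0.02 in control siRNA and 0.78 in G0s2 siRNA, against 3.14 in vehicle and 3.64 in DEN. The list's median level was 4.45 in ATRA, 3.50 in vehicle, 4.62 in ATRA+DEN, 3.64 in DEN, 2.35 in control siRNA and 2.24 in G0s2 siRNA. At day 2 the direction was the other one, with medians of -0.34 in ATRA minus vehicle and -0.99 in ATRA+DEN minus DEN. Sqle differed there by -0.30 and -3.39.

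The promoter of Hmgcs1 is shown for the letters that sterol genes often carry. It lies at chr13:119690101-119690400, plus strand, RefSeq on GRCm38.p6, and the capitals mark CACCCCAC, the core of a classical sterol regulatory element, and ATTGG, the inverted CCAAT box bound by NF-Y, on either strand.
Hmgcs1: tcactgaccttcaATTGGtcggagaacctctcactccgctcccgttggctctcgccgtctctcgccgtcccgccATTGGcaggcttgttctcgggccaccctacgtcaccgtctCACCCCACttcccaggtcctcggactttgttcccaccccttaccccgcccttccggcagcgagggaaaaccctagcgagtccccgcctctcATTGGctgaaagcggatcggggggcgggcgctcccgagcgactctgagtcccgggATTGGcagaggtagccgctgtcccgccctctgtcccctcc
Of the 26 sterol genes 18 had promoter windows, 21 in number. CACCCCAC was in 2 of the 21 (9.52%), those of Hmgcs1 and Acat2, beside 2.87% of all windows. ATTGG was in 17 of the 21 (81.0%), beside 37.4% of all windows, and in 10 of the 28 windows of the named genes higher in both pairs (35.7%). Both strands were searched, the motifs share no letters, and none of the 21 windows held a DR5.

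**Figure D3:**
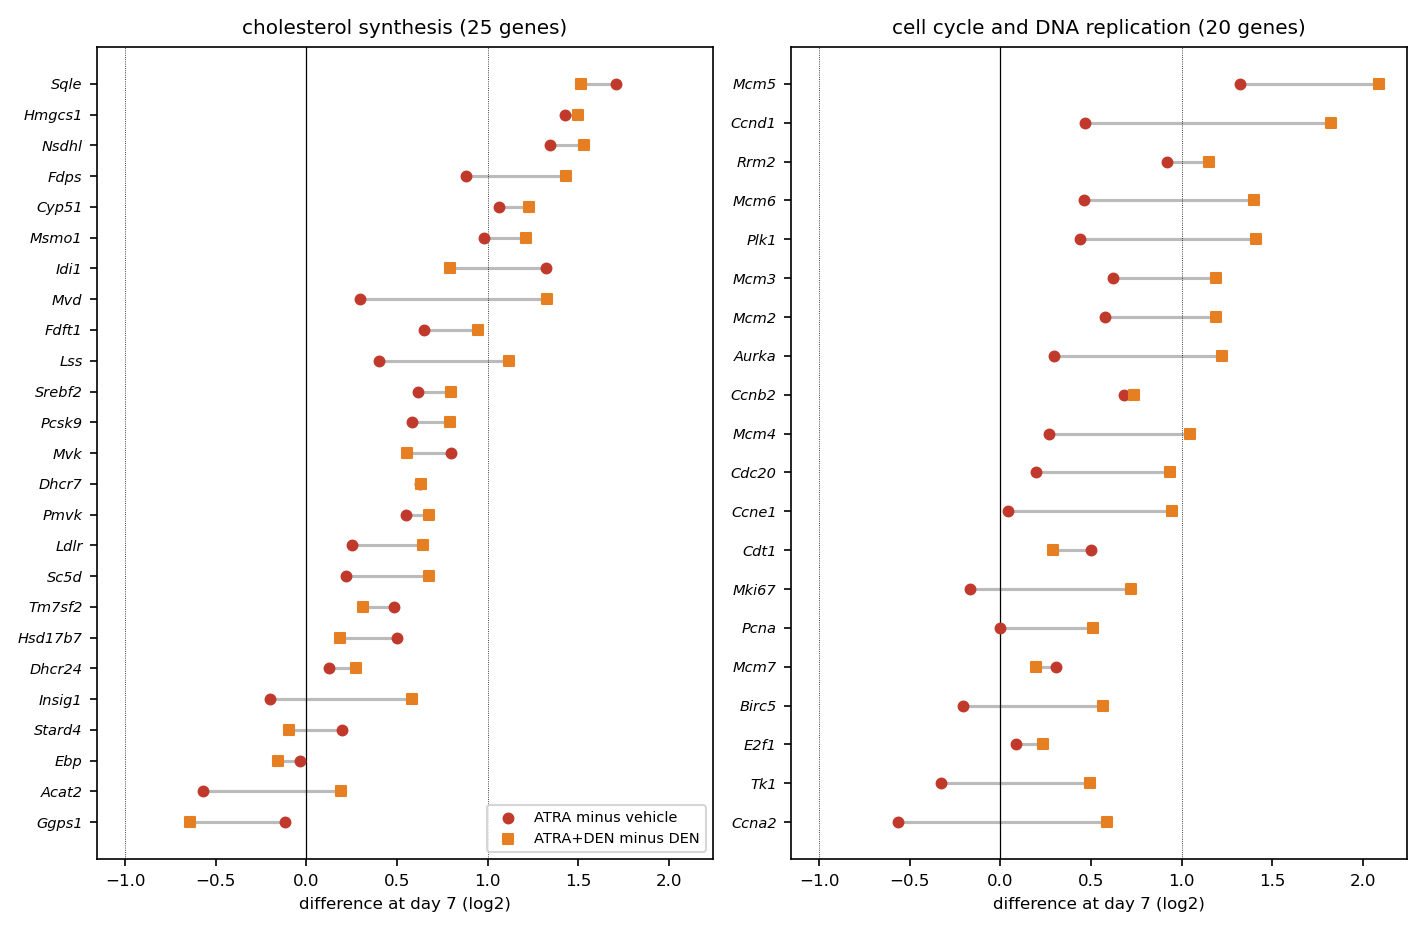
Differences of genes of the cholesterol synthesis and of the cell cycle list (horizontal axis, log2), circles for ATRA minus vehicle and squares for ATRA+DEN minus DEN, with dotted lines at 2-fold. Of the sterol genes plotted 20 of 25 lie right of 0 in both pairs, and of the cell cycle genes 15 of 20.

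Cell cycle genes were higher mainly in the pair with DEN. Of 20 genes of DNA replication and mitosis measured in both pairs, 15 were higher in both, against 32.3% of all genes, and none lower in both. The medians were 0.30 over 22 genes without DEN and 0.94 over 21 genes with DEN, but 0.18 and 0.55 with normexp. At least 2-fold higher were 1 of the 22 (1.44% of all genes) and 9 of the 21 (2.52% of all genes). Mcm5, a subunit of the replicative helicase, was the shared gene, with -0.43 in ATRA and -1.75 in vehicle, and -0.12 in ATRA+DEN and -2.20 in DEN. Both ATRA arrays were above both arrays without ATRA and above both siRNA arrays, at -2.45 and -1.94.

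Ccnd1, the cyclin that starts the G1 phase, had 1.77 in ATRA and 1.30 in vehicle, and 3.90 in ATRA+DEN and 2.08 in DEN. Mcm6, another helicase subunit, had 2.11 in ATRA and 1.65 in vehicle, and 2.92 in ATRA+DEN and 1.52 in DEN. Rrm2, of the enzyme that makes deoxynucleotides, had 0.16 in ATRA and -0.76 in vehicle, and 0.88 in ATRA+DEN and -0.27 in DEN, but was higher still in both siRNA arrays, at 1.45 and 1.41. The list's day-2 medians were 0.23 without DEN and 0.78 with DEN. Whether the pairs differ was not tested, since 4 single arrays leave no residual degree of freedom for it.

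The other genes higher in both pairs have varied roles. H2-Eb1, the beta chain of a class II antigen-presenting molecule, had 2.83 in ATRA and -0.44 in vehicle, and 3.44 in ATRA+DEN and -1.26 in DEN (9.61-fold and 26.0-fold). Its siRNA arrays were high as well, with 3.64 and 1.93, so that slide 4 stood above slide 3 in all its arrays. At day 2 it differed by 3.78 and -0.27.

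H2-Aa, the alpha chain of the other class II molecule, went the other way. It had -0.77 in ATRA and 0.75 in vehicle, and -2.47 in ATRA+DEN and 0.35 in DEN. H2-DMb1, which helps load peptides onto class II, had -0.24 in ATRA and 1.38 in vehicle, and -2.71 in ATRA+DEN and 1.01 in DEN. Class II genes were divided: of 11 listed, 6 were measured in both pairs, 1 was 2-fold higher and 2 were 2-fold lower in both, and the medians were -0.50 and -0.19. Kupffer cell and macrophage markers, whose cells carry class II, had medians of -0.08 over 20 genes and 0.25 over 21 genes.

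Id1, an inhibitor of helix-loop-helix transcription factors that bone morphogenetic protein signals induce, had 1.02 in ATRA and -0.55 in vehicle, and 3.73 in ATRA+DEN and 2.10 in DEN. Both pairs differed by a similar step (2.96-fold and 3.11-fold), but DEN exceeded ATRA, and the siRNA arrays at 2.14 and 1.86 were level with DEN. Gaa, the lysosomal enzyme that breaks down glycogen, had 5.52 in ATRA and 4.19 in vehicle, and 5.17 in ATRA+DEN and 3.74 in DEN. At day 2 Gaa differed the other way, by -1.03 and -0.94. Mt2, a metal-binding metallothionein, had 5.65 in ATRA and 3.77 in vehicle, and 2.62 in ATRA+DEN and 1.53 in DEN, with 8.06 and 7.40 in the siRNA arrays.

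Further members were Adam32, a membrane protein of the metalloprotease family, and Fabp7, a fatty acid binding protein best known from brain. H2-T3, a nonclassical class I molecule, and Erfl were also among them. Adam32 was 2.50-fold and 2.62-fold higher and above both siRNA arrays in both ATRA arrays. Fabp7 differed by 2.47-fold and 2.45-fold. H2-T3 differed by 2.78-fold and 2.77-fold, though G0s2 siRNA, at -1.05, was above ATRA, at -1.14. Erfl differed by 2.34-fold and 2.56-fold, but its ATRA+DEN level of 0.96 was under the vehicle level of 1.37. With normexp, Mcm5 (0.59 and 0.97), Adam32 (0.77 and 0.94) and H2-T3 (0.62 and 0.73) were under 2-fold in both pairs. Of all 53 genes higher in both pairs 29 remained so with normexp, and of the 30 lower in both 14 did.

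**Figure D4:**
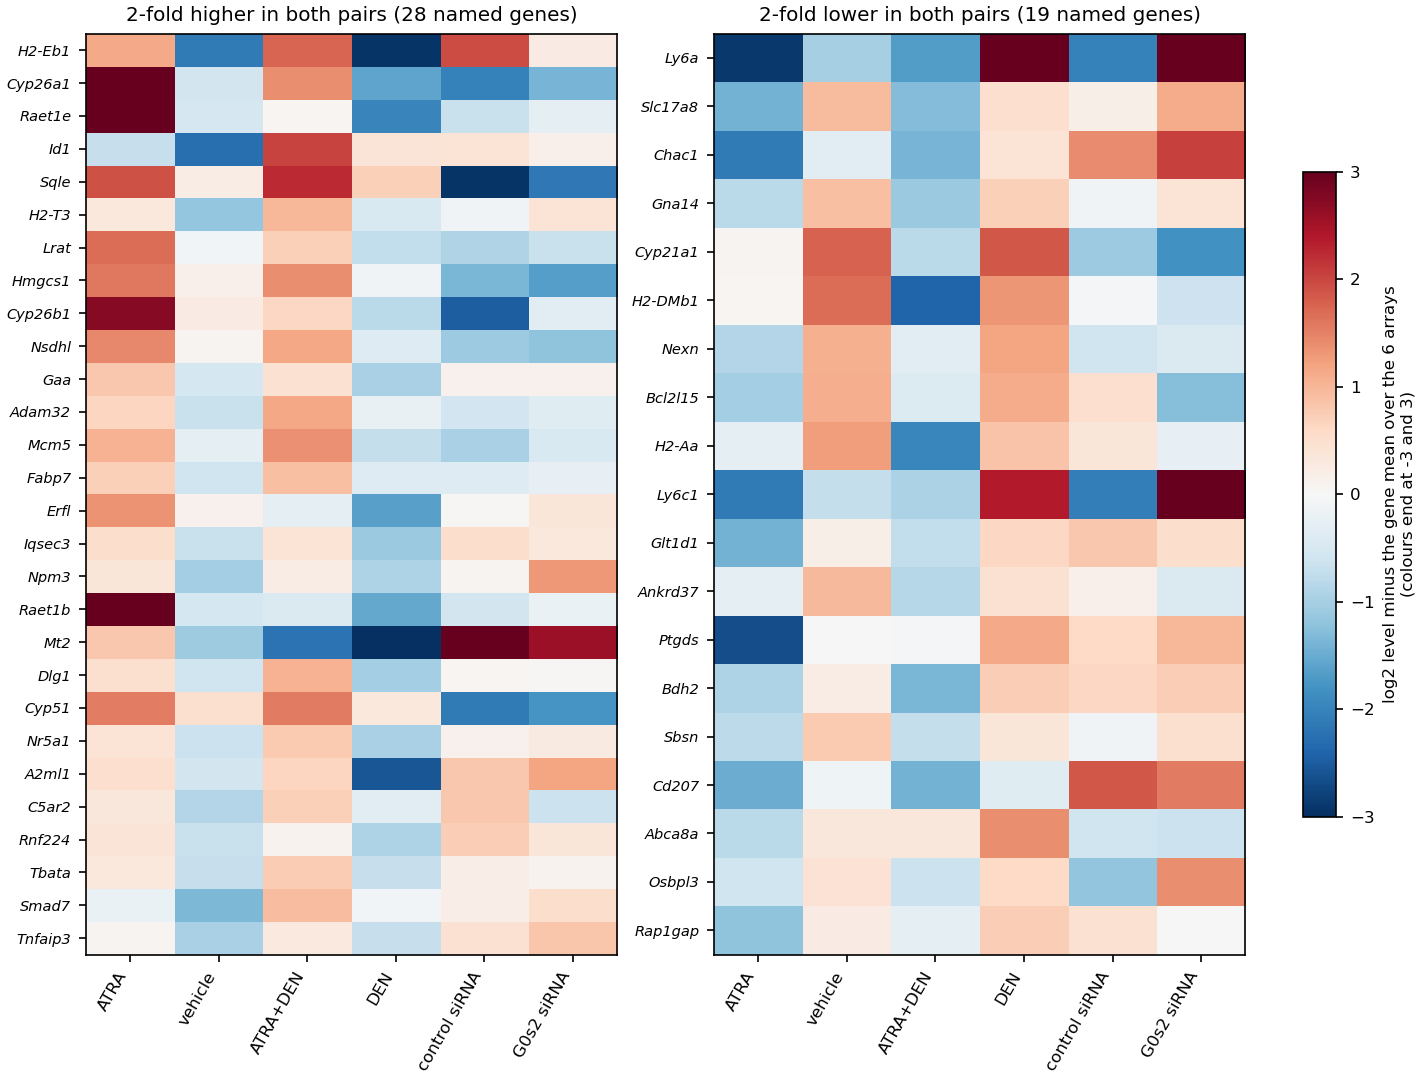
Level of each named shared gene on the 6 day-7 arrays as a colour, log2 minus the gene's mean over the 6 arrays, red above and blue below, ending at -3 and 3. The 28 genes on the left are higher in both pairs and the 19 on the right lower, and the siRNA columns show which of them also separate slide 4 from slide 3.

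The genes lower in both pairs include Ly6a and Ly6c1, neighbouring genes for surface proteins of lymphocytes, endothelium and progenitors. Ly6a (Sca-1) had 0.45 in ATRA and 2.34 in vehicle, and 1.66 in ATRA+DEN and 6.42 in DEN, with 1.31 in control siRNA and 7.83 in G0s2 siRNA. Ly6c1 had 3.00 in ATRA and 4.42 in vehicle, and 4.19 in ATRA+DEN and 7.51 in DEN, with 3.05 and 8.60 in the siRNA arrays. DEN and G0s2 siRNA were thus the high arrays in both genes. At day 2 Ly6a was higher with ATRA, by 0.57 and 3.22.

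Chac1, a glutathione-degrading enzyme induced by amino acid stress, had -1.10 in ATRA and 0.67 in vehicle, and -0.37 in ATRA+DEN and 1.43 in DEN (3.43-fold and 3.47-fold lower). Both siRNA arrays, at 2.44 and 3.07, were above all 4. At day 2 Chac1 was higher with ATRA by 1.58 and 3.49. Slc17a8, a vesicular glutamate transporter, was 5.10-fold and 3.51-fold lower, and below both siRNA arrays too, but another probe of it differed by -0.94 in ATRA+DEN minus DEN. Bdh2, a short-chain dehydrogenase that acts on ketone bodies, had 2.44 in ATRA and 3.59 in vehicle, and 1.98 in ATRA+DEN and 4.09 in DEN, with 3.97 and 4.09 in the siRNA arrays.

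Cyp21a1, the steroid 21-hydroxylase of the adrenal, had 2.63 in ATRA and 4.31 in vehicle, and 1.74 in ATRA+DEN and 4.41 in DEN. Its siRNA levels, 1.44 and 0.71, were lower than in all 4, so slide 4 as a whole was low. Gna14, a G protein subunit, was 3.27-fold and 3.55-fold lower. Nexn, an actin-binding protein, was 3.84-fold and 2.90-fold lower, with siRNA levels of -1.65 and -1.50 beside -1.94 in ATRA and -1.40 in ATRA+DEN. Ptgds, which makes prostaglandin D2 and carries retinoids, had -1.12 in ATRA and 1.54 in vehicle, and 1.51 in ATRA+DEN and 2.68 in DEN. The remaining genes named by the rule, Bcl2l15, Glt1d1, Ankrd37 and Sbsn, were between 2.12-fold and 4.32-fold lower in the single pairs. Another probe of Glt1d1 differed by -0.50 in ATRA+DEN minus DEN.

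The siRNA arrays, on the same slide as the ATRA arrays, divide the shared genes. Of the 53 higher genes, 48 had both ATRA arrays above both vehicle and DEN (20.8% of all genes), a count that the choice of these genes on the same arrays largely fixes and from which nothing is read. In 27 both ATRA arrays were above both siRNA arrays (28.7% of all genes). A 2-fold step over both siRNA arrays was met by 10 of the 53 (1.94% of all genes), and the 8 with gene names were Adam32, Cyp26a1, Cyp51, Hmgcs1, Lrat, Mcm5, Nsdhl and Sqle. Conversely 13 of the 53 had both siRNA arrays 2-fold above both arrays of slide 3 (1.27% of all genes), among them H2-Eb1, Mt2, A2ml1, Npm3, Rnf224 and Tnfaip3, which were named after their values were seen.

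Of the 30 lower genes, chosen on the same 4 arrays, all had both ATRA arrays below both vehicle and DEN, as did 2492 of the 16644 genes, from which likewise nothing is read. In 12 both ATRA arrays were below both siRNA arrays (29.5% of all genes). The 5 that were 2-fold below both siRNA arrays (1.02% of all genes) were Bdh2, Cd207, Chac1, Glt1d1 and Slc17a8. In 9 of the 30 the siRNA arrays were themselves 2-fold below slide 3 (2.73% of all genes), including Cyp21a1, H2-DMb1 and Nexn.

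Day 2 gave a second view within a slide. Of the 53 higher genes 6 were 2-fold higher in both day-2 pairs too (0.505% of all genes): Cyp26a1, Cyp26b1, Lrat, Mt2, Raet1b and Raet1e. The sign at day 2 was positive in both pairs for 14 and negative in both for 18. Of the 30 lower genes 1, Cd207, a lectin of Langerhans cells, was 2-fold lower in both day-2 pairs (0.264% of all genes), while 7 had the same sign there in both and 16 the opposite sign in both. The day-2 arrays are other samples at another time, so a difference in sign is a difference between days as well as between slides.

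Other genes were above background in a part of the arrays only. In 266 of all 34741 genes both ATRA arrays were above background while vehicle and DEN were not well above background. Of these, 16 were past 2-fold as a bound in both pairs. The share of probes well above background was 46.2% in ATRA+DEN, 42.9% in ATRA, 43.4% in vehicle and 43.6% in DEN. The largest bound was in Igsf23, an immunoglobulin family gene, with at least 33.2-fold over vehicle and at least 47.5-fold over DEN. Both siRNA arrays were also above background, at -2.04 and -2.85, but below ATRA, at 2.02, and ATRA+DEN, at 1.74. At day 2 Igsf23 differed the other way, by -5.89 without DEN and -0.94 with DEN, no background filter being applied there. Rhox5, an X-linked homeobox gene, was at least 8.07-fold and 7.88-fold higher. Nrg2, a growth factor of the neuregulin family, was at least 3.96-fold and 7.81-fold higher and not well above background in either siRNA array. Fkbp11, a chaperone of the endoplasmic reticulum, was at least 2.33-fold and 3.15-fold higher.

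In the other direction 84 of the 34741 genes were above background in vehicle and DEN but in neither ATRA array, 18 past 2-fold as a bound in both. Epb42, a red cell membrane protein, was at least 9.70-fold and 14.8-fold lower. Prss50, a testis protease, was at least 7.01-fold and 9.36-fold lower. Zfp783, Hpcal4 and Cylc1 followed, with bounds from 4.09-fold to 15.1-fold. These 5 were not well above background in either siRNA array, so they separate slide 3 from slide 4 in all 6 arrays.

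Genes of a single pair were more numerous than shared ones. At least 2-fold apart in ATRA minus vehicle and under 0.5 on the log2 scale in the other pair were 96 higher and 89 lower genes. The largest among the higher was Xlr3b, an X-linked lymphocyte-regulated gene, with 1.66 in ATRA and -2.66 in vehicle, and 2.09 in ATRA+DEN and 1.90 in DEN. Vehicle was the low array, below all the others. The same held for Neu3, a ganglioside sialidase (0.31 in ATRA, -1.67 in vehicle), and Pnldc1, a nuclease that trims small RNAs in the germ line (2.53 in ATRA, 0.67 in vehicle). Another probe of Pnldc1 gave a difference of 0.40 in this pair.

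Elovl3, a fatty acid elongase with a daily rhythm in male liver, had 5.81 in ATRA and 3.87 in vehicle, and 5.76 in ATRA+DEN and 5.90 in DEN. Ndrg1, a stress-response gene, had 2.86 in ATRA and 0.68 in vehicle, and 1.00 in ATRA+DEN and 1.40 in DEN. Cmya5 and Esrrb, with 3.21-fold and 3.04-fold, completed the set beside Rarb. For Rarb, Ndrg1 and Esrrb ATRA was the high array of the 6, which was not so for Elovl3, where DEN was higher.

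Among those lower without DEN, Gstp3, a glutathione transferase, had 1.48 in ATRA and 6.48 in vehicle, and 3.41 in ATRA+DEN and 3.31 in DEN. Its siRNA levels spread as widely, 6.78 in control siRNA and 3.50 in G0s2 siRNA. Ces2a, a liver carboxylesterase, had 5.55 in ATRA and 8.41 in vehicle, and 8.25 in ATRA+DEN and 8.14 in DEN, so that ATRA alone was low. Msln, Slpi and Igfbp6, genes known from mesothelium and epithelia, were 7.12-fold, 6.44-fold and 4.52-fold lower, with ATRA the lowest of the 6 arrays in each. Pam, which amidates peptides, was 7.11-fold lower, and Ttc39a and Pop4 4.02-fold and 3.88-fold.

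In ATRA+DEN minus DEN alone 253 genes were higher and 249 lower. Mettl25 had 3.74 in ATRA+DEN and 0.07 in DEN, and 0.52 in ATRA and 0.34 in vehicle, so ATRA+DEN alone was high. Alas2, which starts haem synthesis in red cell precursors, had 6.53 in ATRA+DEN and 3.89 in DEN, and 2.83 in ATRA and 2.89 in vehicle. The red cell list as a whole had a median of 0.14 in this pair. Ttbk1, a tubulin kinase, was 7.89-fold higher, again with ATRA+DEN the high array.

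In Hamp2, Rdh1, Abca17 and Fam174b DEN was the lowest of the 6 arrays. Abhd1 had 2.39 in ATRA+DEN and -0.63 in DEN, with both siRNA arrays, at -1.36 and -1.34, lower still. Hamp2, a paralogue of the iron hormone hepcidin, had 3.50 in ATRA+DEN and 0.91 in DEN, and hepcidin itself, Hamp, 9.49 in ATRA+DEN and 8.36 in DEN. Rdh1, a retinol dehydrogenase, had 0.28 in ATRA+DEN and -2.59 in DEN, and 0.62 in ATRA and 0.15 in vehicle. Abca17 and Fam174b differed by 6.07-fold and 5.57-fold.

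Of the genes lower with DEN only, Tmem139 had -1.73 in ATRA+DEN and 1.42 in DEN, Col5a3, a fibrillar collagen chain, -0.03 in ATRA+DEN and 2.09 in DEN, and Sult2a7, a sulfotransferase, 1.35 in ATRA+DEN and 3.29 in DEN. In Tmem139 DEN was the only high array of the 6. Tmprss4, Tafa5, Krtap31-1, H2bc18 and Bud13 were between 3.73-fold and 5.65-fold lower. Stellate cell and matrix markers, among which collagens stand, had medians of -0.13 and -0.01 over 24 and 23 genes.

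Opposite directions were seen in 25 genes, 13 higher without DEN and lower with DEN and 12 the other way. Wfdc21, a small secreted protein of the whey acidic protein family, had 2.20 in ATRA and 8.33 in vehicle, and 8.34 in ATRA+DEN and 2.15 in DEN. The arrays fell into a high level in vehicle and ATRA+DEN and a low one in ATRA and DEN, with 3.13 and 4.92 in the siRNA arrays. Dio1, the deiodinase that activates thyroid hormone in liver, had 3.02 in ATRA and 5.73 in vehicle, and 2.84 in ATRA+DEN and -0.63 in DEN. The control siRNA array, at -0.28, was near DEN, and the G0s2 siRNA array had 4.11.

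Bile acid genes, which dispose of cholesterol, were lower in both pairs for 15 of 26 against 25.6% of all genes, with medians of -0.18 and -0.04, the second of which turned positive under another setting (up to 0.03). Cyp7a1, the rate-limiting enzyme of bile acid synthesis, had 2.28 in ATRA and 3.31 in vehicle, and 2.79 in ATRA+DEN and 3.61 in DEN. Cyp8b1, which makes cholic acid, had 1.42 in ATRA and 2.62 in vehicle, and 0.89 in ATRA+DEN and 1.25 in DEN. Nr0b2 (SHP), the nuclear receptor that represses both enzymes, had 2.58 in ATRA and 1.56 in vehicle, and 2.06 in ATRA+DEN and 1.77 in DEN. For Cyp7a1 both ATRA arrays lay below both without ATRA and below both siRNA arrays.

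Immune lists had higher medians in the pair with DEN, a difference between pairs that was not tested. This was not particular to them. ER stress and heat shock genes had -0.10 without DEN and 0.21 with DEN, and urea cycle and amino acid genes -0.07 and 0.17. Some lists went the other way, such as the retinoid list (0.32 and 0.09) and the p53 targets (0.02 and -0.14). The 26 interferon-induced genes had medians of -0.07 without DEN and 0.39 with DEN, and 23 were higher in ATRA+DEN than in DEN, as were 9740 of all 17472 genes. In that pair 2 were at least 2-fold higher, against 2.52% of all genes. Rsad2, an antiviral enzyme, was not among these 2 and differed more without DEN. It had -0.25 in ATRA and -2.72 in vehicle, and -1.04 in ATRA+DEN and -1.68 in DEN. Cytokines and chemokines had medians of -0.03 and 0.57. Il1b, a fever-inducing cytokine, had -1.08 in ATRA+DEN and -2.65 in DEN, against -2.12 in ATRA and -1.81 in vehicle. Markers of T, B and NK cells, the cells that make some of these, had medians of 0.26 over 10 genes and 0.34 over 11 genes, but 0.05 and 0.22 with normexp, and their part was not tested.

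**Figure D5:**
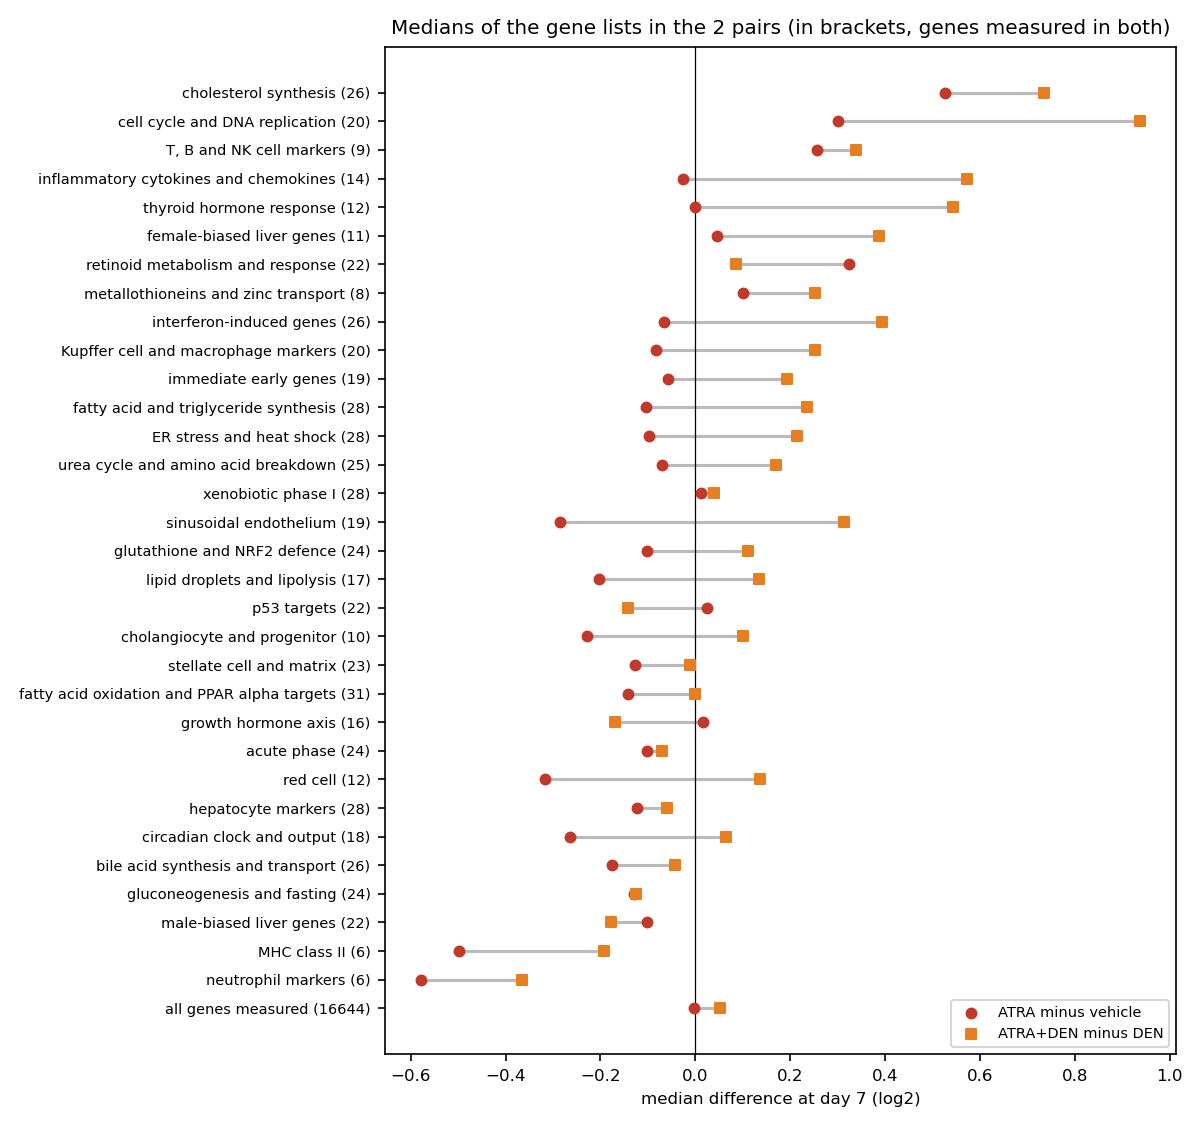
Median difference (horizontal axis, log2) of each gene list with at least 6 genes measured in both pairs, circles for ATRA minus vehicle and squares for ATRA+DEN minus DEN, with all genes measured in the bottom row. The sterol list lies highest among the circles, at 0.53, and the cell cycle list among the squares, at 0.94. With normexp, which is not plotted, the medians in ATRA+DEN minus DEN were 0.55 for the cell cycle list and 0.75 for the sterol list.

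Fat synthesis genes differed in sign between the pairs. Of 28 measured in both pairs, 5 were higher in both, against 32.3% of all genes, and the medians were -0.10 without DEN and 0.23 with DEN. With DEN 25 of 30 were higher, as were 9740 of all 17472 genes. Elovl6, which lengthens palmitate, had 5.05 in ATRA and 4.78 in vehicle, and 4.67 in ATRA+DEN and 3.56 in DEN. Genes of fatty acid oxidation had medians of -0.14 and -0.00, and male-biased liver genes -0.10 and -0.18, which shrank to -0.02 and -0.06 under other settings. Of the 22 male-biased genes 12 were lower in both pairs, against 25.6% of all genes. Bcl6, a repressor that keeps the male pattern, had 2.79 in ATRA and 4.32 in vehicle, and 1.82 in ATRA+DEN and 2.12 in DEN. The p53 targets had medians of 0.02 and -0.14, and none was 2-fold apart in the same direction in both pairs.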

How the data were processed

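Liver RNA was hybridised to Agilent 1-colour (Cy3) mouse arrays with mm9 probe positions, per the file headers. The deposited intensity values are the authors' Feature Extraction processed signals, background-subtracted by that software, whose version is 10.7.1.1 per the file headers and 9.5.1.1 per the submitters' processing notes. From them log2 intensity was taken over non-control probes and each array's 75th percentile subtracted, spots of a probe were averaged, and probes not well above background on both arrays of a pair were left out. Where a gene had several probes, the one brightest on average over the 4 arrays stood for it. Names came from RefSeq by accession (27235 probes), symbol (3581) or synonym (565), and otherwise from the files (24300). Each pair gives differences without a replicate. limma 3.58.1 (R 4.3.3) fitted ATRA and DEN as additive terms over the 4 arrays, with Benjamini-Hochberg adjustment, and was tested on simulated data. Since nothing says that arrays hold separate animals, any p-value measures the spread between these samples only. The number of arrays limits the precision. The pairs, gene lists and the rule for named genes (9 fixed genes, the 15 shared genes per direction with the largest smaller difference, the 8 largest per direction of each single pair, the 5 largest opposite ones and bounds, and up to 4 members a list) were chosen with earlier results of these data known. Alternatives were quantile normalization, the authors' value table, normexp, no background filter, a filter on all 4 arrays, the median over probes, groups by the treatment field, and the control siRNA array in place of vehicle and DEN. Values of 2 genes of the lists are counted in the lists but not reported here.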

Additional observations from a re-analysis of the deposited data

Results flagged for a closer look

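Of the genes at least 2-fold apart in opposite directions in the pairs, the 10 named ones are given here by the difference in ATRA minus vehicle less that in ATRA+DEN minus DEN, on the log2 scale. That the pairs differ was not tested, since 1 array per group leaves no residual degree of freedom for an interaction. For genes higher without DEN and lower with DEN, it was 4.84 for Cwc22, a splicing factor, 3.07 for Clic5, an intracellular chloride channel protein, 2.59 for C9, the last complement component, and 2.48 for Dkk4, a Wnt inhibitor. For genes lower without DEN and higher with DEN, it was -12.3 for Wfdc21, -6.17 for Dio1 and -5.88 for Ces4a, a carboxylesterase. It was -4.84 for Pbld2, -3.76 for Cobl, an actin nucleator, and -2.42 for Tff3, a trefoil peptide of mucosa. Another probe of Cobl gave -0.66 in ATRA minus vehicle and 0.85 in ATRA+DEN minus DEN, under 2-fold in both.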

How the results depend on the processing

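Quantile normalization, the authors' value table, a filter on all 4 arrays and the median over probes kept each count within 1.5 times. The genes 2-fold apart numbered 442 in ATRA minus vehicle and 888 in ATRA+DEN minus DEN, 53 higher in both, 30 lower in both, 25 opposite, 185 in the first pair only and 502 in the second only. In the same order they were 184, 438, 34, 14, 11, 83 and 290 with normexp, and 3952, 4652, 361, 429, 398, 1362 and 2440 with no background filter, where dim probes enter. With groups by the treatment field they were 1181, 625, 14, 10, 224, 523 and 172, and with the control siRNA array in place of vehicle and DEN 1597, 1394, 404, 378, 12, 297 and 182. The cause was not tested. The split in ATRA+DEN minus DEN was 301 higher and 137 lower with normexp and 1674 higher and 2978 lower with no background filter, beside 440 higher and 448 lower. limma called 0 genes under each setting in which it was fitted. It could not be fitted with the control siRNA array. Values of single genes and the medians of the sterol, cell cycle, retinoid and bile acid lists were compared under other settings. These were quantile normalization, the authors' value table, normexp and the median over probes. Of these 640 values, 569 moved little, 71 moved more and, of those past 2-fold, 0 changed sign. Across all lists under these settings, medians near 0 did change sign, those of hepatocyte and bile acid genes in ATRA+DEN minus DEN among them. So did the median of pancreas, muscle and fat genes in that pair, over 4 genes. It was -0.19, and 0.09 with the median over probes. Groups by the treatment field were not in these 640 values. With those groups Cyp26a1 differed by -1.03 in the first pair, beside 4.72 by title.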
